A study of Arabidopsis thaliana with 2 samples.

Results

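SABATH carboxyl methyltransferases are a plant enzyme family that transfers a methyl group from S-adenosylmethionine to small acids, mostly on their carboxyl group. The methyl esters they make from salicylate, benzoate, jasmonate, auxin or gibberellin are often volatile or move between cells more readily than the free acid. Esterases of the MES family turn several of these esters back into the acids. In leaves, BSMT1 and JMT are best known for the methyl salicylate and methyl jasmonate made after attack or wounding, and IAMT1 for auxin methylation in leaf shaping.

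The family was followed here through 10 of its genes, picked by locus with earlier results of these arrays known: PXMT1, AT1G66690, AT1G66720, BSMT1, JMT, IAMT1, FAMT, AT3G44870, AT5G04380 and AT5G38020. They are represented by 16 of the 43603 gene probes on the array, and by 10 of the 26385 loci with a probe. Because the differences between genotypes in these arrays were known when the genes were picked, their values are given as a description and carry no test. The other 14 genes of the family were taken as a companion list.

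The tested plants were the transgenic line 35S:NROB #2, set against wild-type plants, both of the cultivar Columbia-0, as young leaves at day 30. The 35S prefix names a viral promoter that is active in most plant cells, and only the line numbered 2 was hybridised. The sources do not spell out the name NROB. Every array carried transgenic RNA in Cy3 beside wild-type RNA in Cy5, and the 2 arrays are biological replicates per the labels. Since the labels do not say how many plants went into a replicate, p-values measure only the spread between these 2 arrays. With the same dyes on both arrays, genotype and dye cannot be told apart.

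Each array gave a normalized intensity for each channel, and the log2 ratio is 35S:NROB #2 over wild type, as mean ± SD of the 2 arrays. A deposited flag letter stands beside each array's values. P is read here as a signal in both channels, because the dimmer channel of probes flagged A was at most 50.1 on array 1 and 66 on array 2. The lowest intensities flagged P were 35.1 and 51 in the 35S:NROB #2 channels of arrays 1 and 2, and 28 and 25.4 in the wild-type channels. A negative control probe gave 7.15 and 8.28 in 35S:NROB #2, and 7.4 and 7.94 in wild type. Genes with a probe flagged P on both arrays, 16961 in all, were the genes tested, each by its brightest such probe. Their median intensities were 1087 and 1246 in 35S:NROB #2, and 1092 and 1243 in wild type.

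Of the 10 genes, 5 had a probe flagged P on both arrays: PXMT1, JMT, IAMT1, FAMT and AT3G44870. PXMT1 was far higher in 35S:NROB #2, IAMT1 and JMT were lower, and FAMT and AT3G44870 lay near the wild-type level. Of the other 5, AT5G38020 was flagged P on array 1 alone and was lower in the transgenic leaves. BSMT1, AT1G66690, AT1G66720 and AT5G04380 gave between 6.14 and 8.83 in every channel, near the 7.15 to 8.28 of the negative control. The plot of intensities by probe shows all 16 probes.

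**Figure D1:**
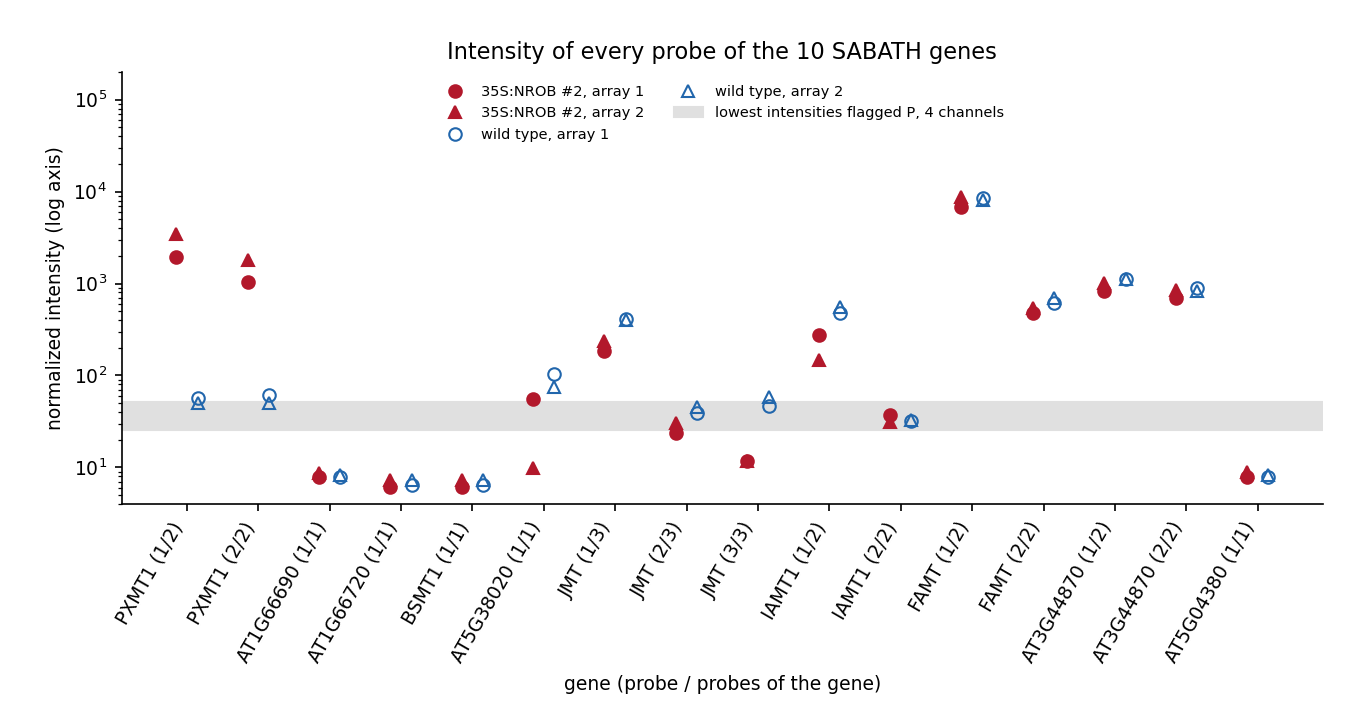
Normalized intensity (log axis) of every probe of the 10 genes, with 35S:NROB #2 as filled red symbols and wild type as open blue symbols, circles for array 1 and triangles for array 2; probes of a gene are numbered from the brightest. The grey band spans the lowest intensities flagged P in the 4 channels, 25.4 to 51. Both PXMT1 probes show the transgenic values far above the wild-type ones, and the probes of AT1G66690, AT1G66720, BSMT1 and AT5G04380 stay between 6.14 and 8.83.

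PXMT1 (AT1G66700) carries the name of a paraxanthine methyltransferase. Its brightest probe gave 1929 and 3480 in 35S:NROB #2 on arrays 1 and 2, against 57.3 and 50.5 in wild type. The groups lie far apart, and the wild-type values lie near the lower end of what was flagged P. The log2 ratio was 5.07 on array 1 and 6.11 on array 2, with a mean of 5.59 ± 0.73 (SD, n = 2), or 48.1-fold. In a sample of whole leaves, more cells with the transcript and more transcript per cell cannot be told apart. The other PXMT1 probe gave 1045 and 1794 in 35S:NROB #2 and 62 and 50 in wild type. Its mean log2 ratio was 4.62 ± 0.77, or 24.6-fold, so both probes show the difference and its size depends on the probe. After 50 was added to each intensity, the brightest probe stood at 4.67. Of the 16961 genes tested, PXMT1 ranked 11 from the highest mean log2 ratio. The difference between its arrays, 1.03, was larger than that of 97% of the genes tested.

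The genes whose log2 ratios lay nearest to those of PXMT1 on the 2 arrays, by Euclidean distance, were CYP71A13 (distance 0.23), AT5G38900 (0.35) and AT1G68620 (0.36). CYP71A13, a cytochrome P450 of camalexin synthesis, had intensities of 1628 and 2118 in 35S:NROB #2 and 50.5 and 35.8 in wild type. AT5G38900 is annotated as a thioredoxin superfamily protein, with mean log2 ratios of 5.64, and AT1G68620 as a probable carboxylesterase, with 5.50. These values rest on 2 arrays and describe likeness of the ratios alone.

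In the order of the RefSeq table, PXMT1 lies between AT1G66690 and AT1G66720, which belong to the same family. AT1G66690 had intensities of 7.82 and 8.72 in 35S:NROB #2 and 7.79 and 8.25 in wild type. AT1G66720 had 6.14 and 7.35 in 35S:NROB #2 and 6.39 and 7.31 in wild type. AT1G66720 was below the negative control in all 4 channels and AT1G66690 above it by less than 1 unit of intensity. Both were flagged A on both arrays, so a difference was not detectable. Of the 10 genes within 5 places of PXMT1, 6 were tested and 0 had a mean log2 ratio over 1 in size. Their mean log2 ratios ran from -0.33 for LIG6, a DNA ligase gene, to 0.50 for AT1G66660. The difference of PXMT1 was thus not shared by the 6 genes tested around it.

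**Figure D2:**
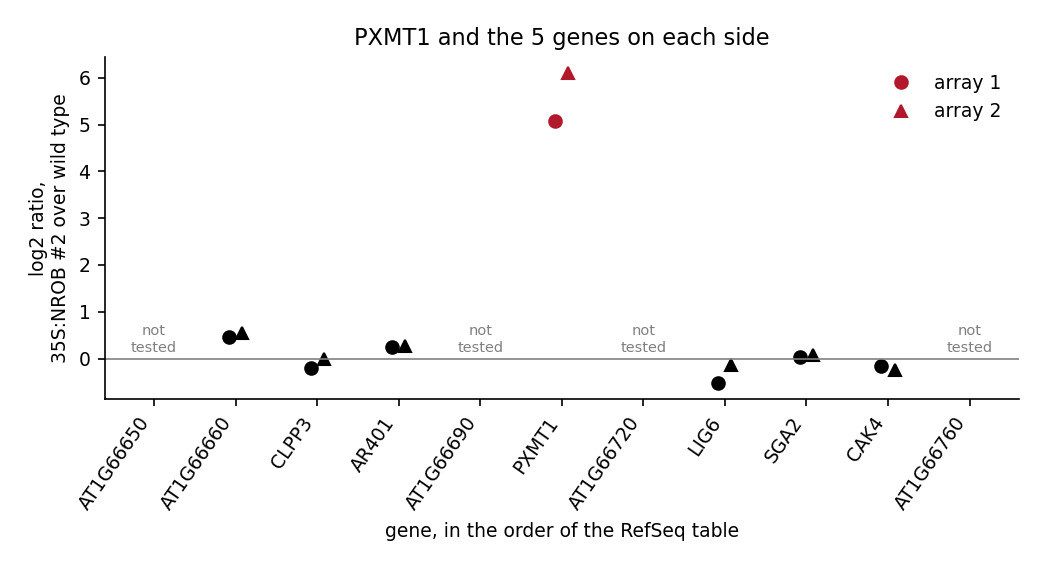
Log2 ratio of 35S:NROB #2 over wild type on array 1 (circles) and array 2 (triangles) for PXMT1 (red) and the 5 genes on each side (black), in the order of the RefSeq table. PXMT1 lies at 5.07 and 6.11, the 6 tested neighbours have means between -0.33 and 0.50, and the 4 marked "not tested" lack a probe with P on both.

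BSMT1 (AT3G11480) is the enzyme that makes methyl salicylate and methyl benzoate in Arabidopsis. Its probe gave 6.14 and 7.36 in 35S:NROB #2, against 6.4 and 7.31 in wild type. All 4 values are below those of the negative control of the same channel, and the groups overlap. A log2 ratio of such values carries no information, and a BSMT1 transcript was not detectable with this probe in either genotype. The transcripts of salicylate synthesis were nevertheless measured well, as given further on.

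AT5G38020 is annotated in the deposited table as similar to salicylate carboxyl methyltransferases, and its substrate is not stated. It has 1 probe, with 54.8 and 9.82 in 35S:NROB #2 and 105 and 75.5 in wild type. Both transgenic values were below both wild-type values, and the transgenic value on array 2 was close to the negative control. The log2 ratio was -0.93 on array 1 and -2.94 on array 2, a mean of -1.94 ± 1.42. The size of this difference is therefore uncertain, and the gene was outside the genes tested since array 2 was flagged A.

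JMT (AT1G19640), which methylates jasmonate, was lower in the transgenic leaves on each of its 3 probes. The brightest probe gave 185 and 237 in 35S:NROB #2, against 414 and 403 in wild type. The transgenic values are below the wild-type ones with no overlap, and the wild-type arrays are close to each other. The log2 ratio was -1.16 on array 1 and -0.77 on array 2, a mean of -0.96 ± 0.28, or 1.95-fold lower. Another JMT probe gave 23.8 and 30.6 in 35S:NROB #2 and 39 and 45.6 in wild type, and the dimmest 11.6 and 11.6 in 35S:NROB #2 and 46.2 and 58.8 in wild type. Both were flagged A on both arrays, so their ratios of -0.65 ± 0.098 and -2.16 ± 0.25 are less certain. Set against the lowest intensities flagged P, the dimmest probe was at least 1.23-fold lower in 35S:NROB #2, as a mean of the 2 arrays.

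IAMT1 (AT5G55250), which methylates the auxin indole-3-acetic acid, gave 279 and 146 in 35S:NROB #2, against 476 and 555 in wild type. Both transgenic values are below both wild-type values. The log2 ratio was -0.77 on array 1 and -1.93 on array 2, a mean of -1.35 ± 0.82, or 2.55-fold lower. The size rested more on array 2, and the difference between its arrays was larger than that of 97.8% of the genes tested. The other IAMT1 probe did not show the difference: it gave 36.9 and 31.5 in 35S:NROB #2 and 31.9 and 32.9 in wild type. It was flagged P on array 1 alone, and its values lie at the low end of the intensities flagged P.

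FAMT (AT3G44860), a farnesoate carboxyl methyltransferase, was bright on its main probe, with 6822 and 8792 in 35S:NROB #2 and 8580 and 8018 in wild type. The groups overlap, and the log2 ratio of -0.099 ± 0.33 changes sign between arrays, at -0.33 and 0.13. Its other probe gave 473 and 539 in 35S:NROB #2 and 617 and 689 in wild type, a log2 ratio of -0.37 ± 0.022. AT3G44870 lies next to FAMT in the RefSeq gene order and belongs to the same family. Its brightest probe gave 824 and 1006 in 35S:NROB #2 and 1134 and 1132 in wild type, a log2 ratio of -0.32 ± 0.21. Its other probe gave 702 and 841 in 35S:NROB #2 and 889 and 840 in wild type, at -0.17 ± 0.24. All 4 probes of this pair had a mean a little below 0, and none differed by 2-fold on either array. Whether a probe of either gene also binds the transcript of the other was not tested.

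AT5G04380 lies next to NAMT1, another gene of the SABATH family, and the substrate of AT5G04380 is not stated. Its probe gave 7.96 and 8.83 in 35S:NROB #2 and 7.9 and 8.33 in wild type, near the negative control in every channel.

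The study's own rule asked for a mean change over 2-fold. Where both arrays also had to share their sign, it was met by 1 of the 5 genes as higher (PXMT1) and by 1 as lower (IAMT1). Over all genes tested the rule was met by 7.68%, with 4.83% higher and 2.84% lower. The count depends on the flags and on a filter by mean intensity, and which gene counts as lower depends on the array. PXMT1, IAMT1 and JMT lie in the lower quartile of intensity averaged over the 4 channels. Without that quartile 0 of the 2 genes left met the rule. The low average of PXMT1 comes from its wild-type values of 57.3 and 50.5. Its transgenic values of 1929 and 3480 are above the medians of those channels, 1087 and 1246, so this filter removes PXMT1 through the difference itself. On array 1 alone JMT was over 2-fold lower and IAMT1 was not, and when a P flag on a single array sufficed, AT5G38020 joined the lower genes, which made 3 of 6. The 35S:NROB #2 and wild-type intensities did not overlap for 4 of the 5 genes, 1 above and 3 below wild type, FAMT being the exception. Among all genes tested 53.3% did not overlap, 23.2% above and 30.1% below. The same 4 genes had 1 sign on both arrays, as did 81.1% of all genes tested, 37.8% higher and 43.3% lower. The median of the 5 mean log2 ratios was -0.32, and that of all genes tested was -0.028. Since the genes were picked with this contrast known, nothing is read from these counts.

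**Figure D3:**
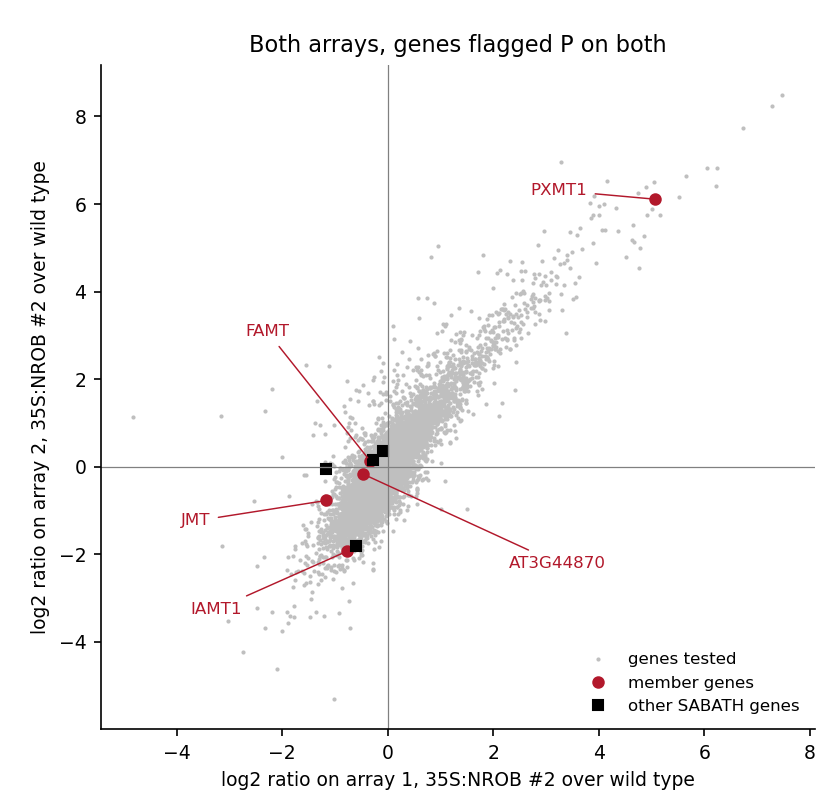
Log2 ratio of 35S:NROB #2 over wild type on array 1 (x axis) against array 2 (y axis) for the 16961 genes tested (grey), the 5 member genes among them (red circles) and 4 other SABATH genes (black squares). PXMT1 stands at 5.07 and 6.11, IAMT1 at -0.77 and -1.93, and FAMT and AT3G44870 lie near the middle of the cloud.

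The rest of the family gives the setting for these values. All 14 other SABATH genes had a probe, but 4 of them were flagged P on both arrays, so 9 of the 24 family genes could be tested. In 11 of the 24 genes, 4 of them members, every probe was under 20 in all 4 channels. Of the 4 other genes tested, 0 passed limma at an adjusted p under 0.05, and 1 had an unadjusted p under 0.05. That gene, AT3G21950, annotated as a methyltransferase, gave 236 and 162 in 35S:NROB #2 and 359 and 565 in wild type. Its log2 ratio was -1.20 ± 0.85, with a limma adjusted p of 0.109, and it was the gene of the list past the fold rule. AT5G38780 stood at -0.60 ± 0.79, AT4G36470 at -0.056 ± 0.30 and AT1G15125 at 0.13 ± 0.30, each smaller in size than its SD. None of these 4 genes was higher on both arrays.

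Among the family genes flagged A on both arrays, some were brighter in wild type. GAMT2 (AT5G56300), which methylates gibberellins, gave 11.9 and 11.9 in 35S:NROB #2, against 47.4 and 140 in wild type. As a mean of the 2 arrays, it was at least 1.93-fold lower in 35S:NROB #2 when set against the lowest intensities flagged P. NAMT1 (AT5G04370) gave 6.38 and 8.74 in 35S:NROB #2 and 16.3 and 41.7 in wild type, so that the transgenic values lay near the negative control. GAMT1 (AT4G26420), the other gibberellin methyltransferase, stayed between 6.4 and 7.58 in all channels on both probes. AT5G38100, also flagged A, was higher in 35S:NROB #2 on its brightest probe, with 24.1 and 17.9 against 12.3 and 15.9 in wild type. On its dimmest probe the groups overlapped. Across the family, PXMT1 was the only gene of the 24 whose brightest probe had a log2 ratio above 1 on either array, as the plot of the 24 genes shows.

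**Figure D4:**
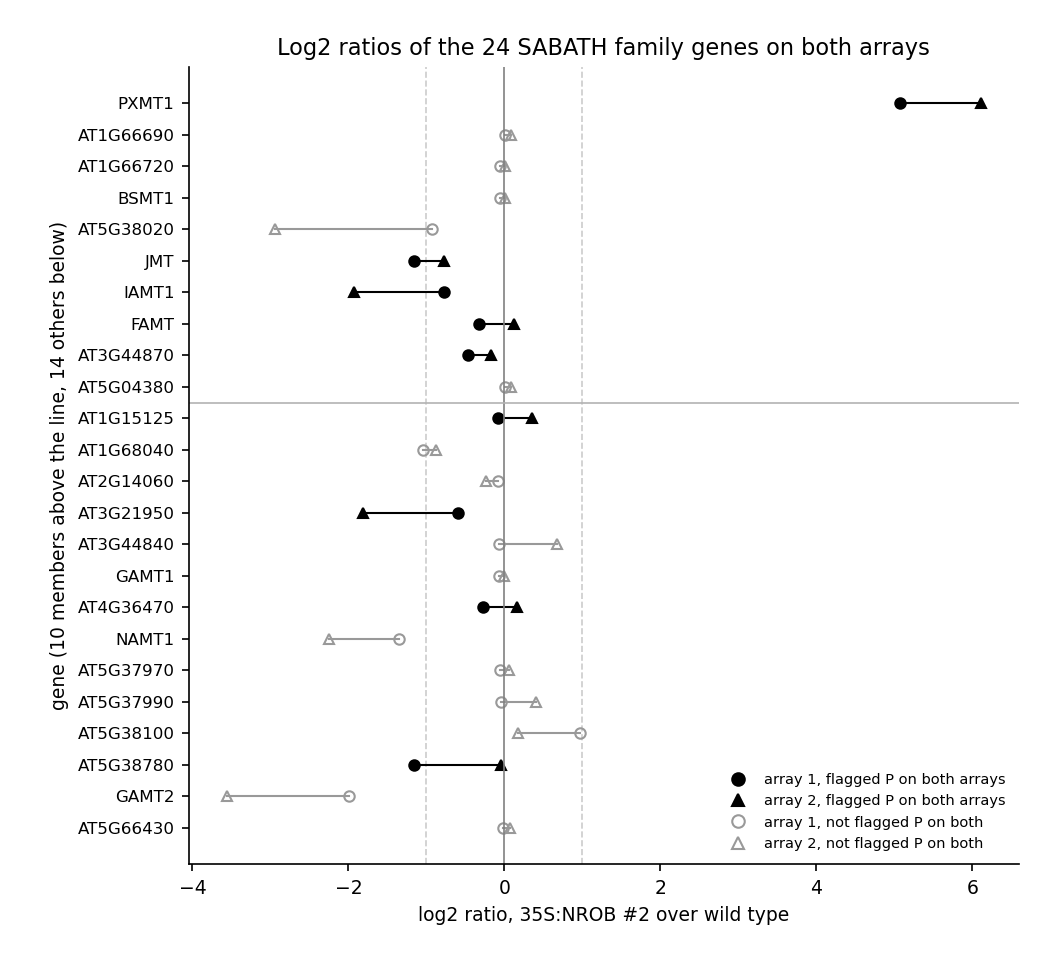
Log2 ratio of 35S:NROB #2 over wild type on array 1 (circles) and array 2 (triangles) for the brightest probe of each of the 24 SABATH genes, with the 10 members above the grey line; dashed lines mark a 2-fold difference. Black symbols are probes flagged P on both arrays and grey open symbols are the rest. PXMT1 lies far to the right, while AT5G38020, JMT, IAMT1, AT3G21950, NAMT1 and GAMT2 lie to the left of 0 on both arrays.

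Enzymes that make or use the acids, serve the supply of the methyl group or split the esters were taken as companion lists. The lists held 105 genes in all, the other SABATH genes included, of which 76 were tested. Over all genes, limma called 40 higher and 3 lower at an adjusted p under 0.05, or 0.254% of genes (0.236% higher and 0.0177% lower), so that 93% of calls were higher. That share was 70.9% with each array centred on its median, 80% after loess and 65.2% after quantile normalization. With the channels of an array left unpaired it was 50.2%, so the lean to higher calls depended on the setting. None of the 76 companion genes was called by limma (0, lowest adjusted p = 0.0516), while 21 higher and 14 lower genes had an unadjusted p under 0.05. Such unadjusted values were reached by 33.1% of all genes tested. By the fold rule 14 of the 76 were higher and 4 lower. Over all genes tested the shares were 4.83% and 2.84%, also the background of the counts per list.

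The MES esterases, which split the methyl esters, went both ways, with a median log2 ratio of -0.38 over 13 of 20 genes tested. MES9, which acts on methyl salicylate, gave 539 and 795 in 35S:NROB #2, against 220 and 206 in wild type, a log2 ratio of 1.62 ± 0.46. MES1, with the same substrate, stood at 1.56 ± 0.62, while MES7, also active on methyl salicylate, stood at -1.24 ± 0.50. MES2 stood at 0.15 ± 0.041, and MES4 stayed near the negative control. MES10, active on methyl jasmonate, and MES17, active on methylated auxin, stood at -0.44 ± 0.06 and -0.61 ± 0.26, and MES18 at -0.99 ± 0.22. In the S-adenosylmethionine cycle, 1 of 14 genes passed the fold rule: SAHH2, an adenosylhomocysteine hydrolase, at -1.06 ± 0.98, as the plot of the lists shows. SAM1, a synthetase of the methyl donor, stood at 0.91 ± 0.18 on its brightest probe and 0.44 on the lowest of 3 probes. SAHH1 stood at 0.44 ± 0.021 on its brightest probe and -0.053 on the lowest of 6, and ATMS2, a methionine synthase, at -0.53 ± 0.43.

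**Figure D5:**
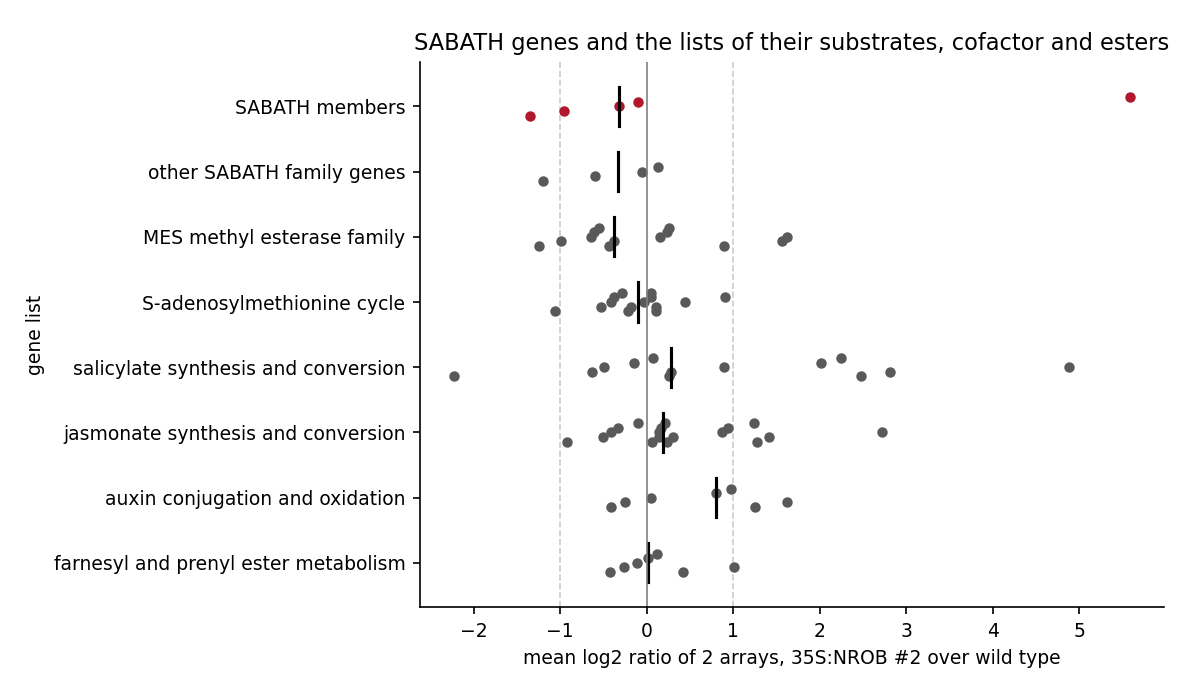
Mean log2 ratio of 35S:NROB #2 over wild type on 2 arrays for the 5 SABATH genes tested (red) and for the genes of 7 companion lists (grey points), with a black bar at each median and dashed lines at a 2-fold difference. Medians run from -0.38 for the MES esterases to 0.80 for auxin conjugation and oxidation, and the salicylate list spans -2.23 to 4.88.

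For the acid used by BSMT1, 5 of 13 salicylate genes were higher and 1 lower by the fold rule, with a median log2 ratio of 0.28. ICS1, the isochorismate synthase of stress-induced salicylate, gave 2087 and 2629 in 35S:NROB #2, against 603 and 551 in wild type. PBS3 and EDS5, which act after it, stood at 2.48 ± 0.35 and 2.25 ± 0.55. The salicylate hydroxylases DLO1 and DMR6 stood at 4.88 ± 1.24 and 2.81 ± 0.52. The lower gene was ICS2, at -2.23 ± 1.11, named after its value was seen. For the acid used by JMT, 4 of 18 jasmonate genes were higher and 0 lower, with a median of 0.18. They were JOX3, a jasmonate hydroxylase, at 2.72 ± 1.05, the cyclase gene AOC3 at 1.41 ± 1.24, the amidohydrolase gene IAR3 at 1.28 ± 0.46 and CYP94C1 at 1.24 ± 0.90. AOC3 was dim, with 131 and 140 in 35S:NROB #2 and 90.4 and 28.7 in wild type. The brighter cyclase genes AOC1, AOC2 and AOC4, named after their values were seen, stood at -0.92 ± 0.37, -0.096 ± 0.51 and -0.51 ± 0.22. The synthesis gene AOS stood at -0.41 ± 0.24 and JAR1, which joins jasmonate to isoleucine, at -0.33 ± 0.23. For the acid used by IAMT1, GH3.3 and GH3.5, which join auxin to amino acids, stood at 1.62 ± 0.80 and 1.25 ± 0.52. They were the genes past the fold rule among 7 tested, with GH3.6 at 0.97 ± 0.68 and the auxin oxidase gene DAO1 at 0.80 ± 0.28. In the list of farnesyl metabolism, ICME, an esterase of prenylated proteins, stood at 1.01 ± 0.47 as the 1 of 7 genes past the fold rule. FOLK, FLDH and FPS2 stood at -0.42 ± 0.075, 0.42 ± 0.20 and -0.26 ± 0.37.

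Leaf photosynthesis markers were flagged P on both arrays in 6 of 6 genes, with log2 ratios from -0.47 to 0.14, and summed to 781365 and 720973 in 35S:NROB #2 and 751134 and 788950 in wild type. Root, flower and seed markers were flagged P on both arrays in 0 of 14 genes. Guard cell markers had a negative log2 ratio on both arrays in 3 of 3 genes, as had 43.3% of all genes tested, and 1 of them, SLAC1, passed the fold rule (median -0.57; summed 1582 and 1947 in 35S:NROB #2, 2329 and 3327 in wild type). Phloem and xylem markers were negative on both arrays in 3 of 3, and IRX3 and IRX1 passed the fold rule while SUC2 stood at -0.33 (median -1.08; summed 14777 and 15244 in 35S:NROB #2, 17845 and 20705 in wild type). limma called 0 markers of either list, with lowest adjusted p-values of 0.0542 and 0.0859, while 3 and 2 of them had an unadjusted p under 0.05. Of 3 trichome markers 1 was tested, GL2, at -0.17. Of 2 senescence markers 1 was tested, SAG13, which was higher at 5.05 ± 1.61. SAG12, flagged A on both arrays, gave 213 and 618 in 35S:NROB #2, against 6.26 and 5.47 in wild type. The part of all these markers in the SABATH values was not tested.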

How the data were processed

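Leaf RNA of 35S:NROB #2 (Cy3) and wild type (Cy5) was hybridised together on 2 two-colour arrays. Per the submitters' processing notes, Agilent Feature Extraction 8.5.1.1 was used. The authors deposited a normalized intensity per channel on a linear scale; background correction and normalization are not given in the sources used here. The deposited log2 ratio, wild type over 35S:NROB #2, equals that of the channels within 9.62e-07, and its sign was turned. A wild-type header of array 2 that also carries the transgene's name was settled by this match. No probe is described as NROB, so the transgene was not checked.

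Loci were found for 36709 of 43603 gene probes, by accession, locus or symbol through the RefSeq table of TAIR10.1, used for names and gene order alone. Of the 10 member genes, 9 matched by accession and 1 by locus. Probes flagged P on both arrays (25318) were kept, with the brightest per gene.

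limma 3.58.1 in R 4.3.3 fitted an intercept to the 2 log2 ratios of each gene, with eBayes and Benjamini-Hochberg adjustment over 16961 genes. The fit had 1 residual and 2.72 prior degrees of freedom and was tested on simulated data. The fold rule, no test, takes mean log2 ratios beyond 1 in either direction whose arrays share their sign. "At least" folds set the bright group against the lowest intensity flagged P per array, or the probe's own value if higher. They are means of the 2 arrays on the log2 scale, so a single array can lie below them. Dimmer channels flagged A reached 50.1 on array 1 and 66 on array 2, so these folds hold for that floor alone. Python 3.11.15, pandas 2.3.3 and matplotlib 3.10.9 were used. The number of arrays limits the precision.

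The members and lists were chosen with earlier results of these data known. Named genes are all members, up to 4 genes of largest mean log2 ratio per list, and those whose product shares a substrate or ester with a member. Alternatives covered scaling, an offset, flags, probe choice, dim genes, pairing and each array alone.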

Additional observations from a re-analysis of the deposited data

How the results depend on the processing

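The count of SABATH genes past the fold rule was 2 under median centring, loess, quantile normalization, an offset of 50 and the mean of a gene's probes. That mean took only probes flagged P on both arrays, so IAMT1 and JMT kept their brightest probe alone, at -1.35 and -0.96. The other IAMT1 probe, at 0.074, entered none of these settings, so they do not cover the disagreement between its probes. The count was also 2 on either array alone (2 to 2 without 1 replicate). It was 3 when a P flag on 1 array sufficed or with all gene probes. On array 1 alone the lower gene was JMT, at -1.16, while IAMT1 at -0.77 did not pass. Neither PXMT1 nor IAMT1 changed sign under these settings. With both arrays kept, the log2 ratio of PXMT1 ran from 4.67 to 5.66, that of IAMT1 from -1.35 to -1.15 and that of JMT from -0.98 to -0.82. FAMT changed sign without replicate 1, at 0.13.

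limma calls over all genes depended most on the processing: 43 as reported, 1193 after median centring, 501 after loess, 999 after quantile normalization, 741 with an offset of 50, 616 with the mean of probes, 27 when a P flag on 1 array sufficed, 1534 with all gene probes and 326 without the lower quartile of intensity. Calls among the companion genes, 0 as reported, were 13, 5, 9, 7, 6, 1, 12 and 5 in the same order. The pairing of channels within arrays was part of the main test. With no replicate block there were 2947 calls over all genes, 1478 higher and 1469 lower, and 27 among the companion genes. The cause of these shifts was not tested. Companion genes past the fold rule were 18 as reported, 10 of 56 without the lower quartile, and 12 to 25 with 1 replicate left out. PXMT1, IAMT1 and JMT lay within the lower quartile of mean intensity, with 23.2%, 20.3% and 18.7% of genes dimmer. PXMT1 lay there through its wild-type channels. Without the lower quartile 0 of the 2 SABATH genes left were past the fold rule, an alternative chosen after seeing the data. With 1 array no limma test can be made.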

Other observations

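Some companion genes outside the test differed between genotypes, and they were named after their values were seen. Folds given as "at least" are means of the 2 arrays against the lowest intensities flagged P. JOX4, a jasmonate hydroxylase gene, gave 702 and 1231 in 35S:NROB #2, against 13.8 and 7.21 in wild type, at least 34.8-fold higher. UGT76B1, a glucosyltransferase gene that acts on salicylate, gave 484 and 680 in 35S:NROB #2 and 28 and 26.2 in wild type, and was flagged A on array 1. GH3.2, of auxin conjugation, gave 47.9 and 64.8 in 35S:NROB #2 and 8.37 and 7.88 in wild type, at least 2.09-fold higher. GH3.9 gave 37.5 and 48 in 35S:NROB #2 and 55 and 112 in wild type, at least 1.8-fold lower. MES20, of the esterase family, gave 8.61 and 10.9 in 35S:NROB #2 and 41 and 53.7 in wild type, at least 1.11-fold lower.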
